A study of Drosophila melanogaster with 2 samples.

Results

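The cuticle protein genes of Drosophila melanogaster were taken as the protein-coding genes whose symbol starts with Cpr, Lcp, Ccp84, Twdl, Edg or Acp65 in the Ensembl annotation. The rule found 122 genes among 13968 protein-coding genes on the chromosome arms. They were 70 Cpr genes, 25 Twdl genes, 15 Lcp genes, 7 Ccp84 genes, 3 Edg genes, Acp65Aa and 1 gene whose symbol is Cpr alone. That last gene encodes NADPH-cytochrome P450 reductase, an electron carrier of drug and hormone metabolism. It matched the rule by its letters and is not a cuticle protein. It is kept in the counts and named where it leads a list. Genes of the same families under other symbols were not counted. Arm 3L held 47 of the genes, 3R held 33, 2R held 27, X held 8 and 2L held 7.

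The data are a chromatin immunoprecipitation with sequencing of Hr38 in whole white prepupae. The flies, male and female pooled, carried a transgene for Hr38 with GFP at its C terminus, and the chromatin was sonicated. The precipitation was made against GFP per the description, while the antibody field of the labels names Hr38. The labels give an age of 48 h and not the event from which it runs. There was 1 group with 2 biological replicates, so no groups were compared and no test was made, and a control experiment that the labels name was not analysed here. In a whole animal, the cells that make cuticle and all others contribute to the same chromatin, so binding in few cells and weak binding in many cannot be told apart.

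The insect cuticle is built by the epidermis from chitin fibres and a large set of structural proteins. Most proteins of the Cpr, Lcp, Ccp84 and Acp65 groups carry the Rebers-Riddiford consensus, a chitin-binding domain, and Tweedle proteins form a separate family named for the body shape of mutants. The Edg genes were named as ecdysone-dependent genes of imaginal discs, and at the prepupal stage the pulse of the steroid hormone ecdysone starts the change from larval to pupal cuticle. Hr38 is the NR4A nuclear receptor of flies, animals that lack it are known for a weak adult cuticle, and the adult cuticle gene Acp65Aa has been described as regulated by it. NR4A receptors can bind as monomers to the NBRE, an AGGTCA core preceded by AA.

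The promoters of the genes that bear most directly on those questions are shown here, each as the 120 bases before the most upstream annotated transcription start site (TSS) in the release 6 assembly, 5′ to 3′ on the gene's strand. Capitals mark TATAAA and the receptor core AGGTCA or its reverse complement TGACCT. The Edg genes are shown as the ecdysone-dependent ones, Acp65Aa for its link to Hr38, and Lcp65Ad and Cpr67Fb because they held the highest pooled scores for genes of their length. Lcp65Ab1 and Lcp65Ab2 are shown as a pair with identical proteins. The stretches are chr3L:21297804-21297923 on the minus strand (Edg78E), chr3R:6684325-6684444 on the plus strand (Edg84A), chr3R:17611512-17611631 on the minus strand (Edg91) and chr3L:6152746-6152865 on the minus strand (Acp65Aa). The others are on the plus strand of 3L, at chr3L:6143275-6143394 (Lcp65Ad), chr3L:10894053-10894172 (Cpr67Fb), chr3L:6149428-6149547 (Lcp65Ab1) and chr3L:6146554-6146673 (Lcp65Ab2).
Edg78E: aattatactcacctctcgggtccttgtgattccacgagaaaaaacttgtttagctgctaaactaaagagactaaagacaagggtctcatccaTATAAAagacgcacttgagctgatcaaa
Edg84A: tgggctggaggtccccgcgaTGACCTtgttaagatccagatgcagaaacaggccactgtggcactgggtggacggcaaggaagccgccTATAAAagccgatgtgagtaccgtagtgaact
Edg91: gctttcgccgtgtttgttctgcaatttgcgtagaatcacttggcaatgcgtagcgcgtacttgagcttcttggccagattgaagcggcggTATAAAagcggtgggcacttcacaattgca
Acp65Aa: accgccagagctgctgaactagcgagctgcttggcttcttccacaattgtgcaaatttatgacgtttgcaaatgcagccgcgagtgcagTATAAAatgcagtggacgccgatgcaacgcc
Lcp65Ad: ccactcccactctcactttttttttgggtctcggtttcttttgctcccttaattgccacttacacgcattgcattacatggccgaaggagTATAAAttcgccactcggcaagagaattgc
Cpr67Fb: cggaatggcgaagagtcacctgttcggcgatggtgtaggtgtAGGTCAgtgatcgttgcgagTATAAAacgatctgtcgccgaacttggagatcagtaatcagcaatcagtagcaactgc
Lcp65Ab1: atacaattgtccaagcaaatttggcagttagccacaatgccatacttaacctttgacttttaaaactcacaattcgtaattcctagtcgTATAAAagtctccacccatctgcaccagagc
Lcp65Ab2: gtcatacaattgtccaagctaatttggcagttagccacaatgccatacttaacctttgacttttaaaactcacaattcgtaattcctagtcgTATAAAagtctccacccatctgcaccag

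Each of these 8 stretches held TATAAA, and in 7 of them its first base lay 32 to 28 bases before the TSS. In Cpr67Fb it lay at 58 bases, with AGGTCA at 78 bases. Edg84A held the receptor core on the other strand, at 100 bases before the TSS. The Lcp65Ab1 and Lcp65Ab2 stretches read alike over most of their length, offset by 3 bases. No stretch held AAAGGTCA.

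Over all 122 genes, a window from 250 bases before to 50 after the most upstream TSS was searched on both strands for the NBRE (AAAGGTCA), the receptor core (AGGTCA, which every NBRE match also contains), TATAAA, the GAGA repeat GAGAGAG and the DRE (TATCGATA). TATAAA was found in 91 promoters (74.6%), against 45.8% of all protein-coding genes. On the gene's own strand with its first base 45 to 16 bases before the TSS, it was found in 74 (60.7%) against 8.74%. The share in that position was 73.3% in the Lcp family and 55.7% in the Cpr family.

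The letters of nuclear receptor sites were about as frequent as over all genes and do not set these promoters apart. The NBRE was found in 0 of the 122 promoters, against 0.666% of all genes, a share at which 122 promoters would hold few. The core was found in 8 (6.56% against 5.88%), those of Cpr47Ed, Cpr67Fb, Cpr72Ec, Edg84A, TwdlJ, TwdlY, Twdlalpha and Twdlbeta. The GAGA repeat and the DRE were each found in 1 promoter (0.82%), against 5.86% and 9.36% of all genes. The median GC content of the window was 44% in the cuticle protein genes and 38% over all genes.

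Binding was read from 4 deposited lists of regions. The thresholded list holds the 768 peaks that passed the authors' irreproducible discovery rate (IDR) step, which compares how regions rank between replicates. A peak on this list need not rank alike in the 2 replicate lists. The pooled list holds 19279 regions from both replicates together, and the replicate lists hold 30000 and 29031 regions on the arms. The last 3 contain background regions by design. Each region has the authors' score, on a scale that is not stated, which ran from 78.0 to 629 in the thresholded list, upward from 28.2 in the pooled list, and upward from 15.9 and 12.5 in replicates 1 and 2. Each also has a −log10 q value, whose median was 2.91 in the thresholded list and 0.0591 in the pooled list. Read depth is unknown. A gene was counted where the summit of a region, the position the authors mark as its centre, lay within 1 kb of any of its TSSs. The genes are short, with a median length of 970 bp (413 to 18590 bp) against 2164.5 bp for all genes, and 110 of them (90.2%) have 1 TSS, against 73.5%. A window of 1 kb to either side of a TSS therefore covers many cuticle protein genes from end to end. All genes were for this reason also sorted into 10 equal classes by length. The share weighted to the length classes of the cuticle protein genes is given beside totals for each list and for both replicates. It is also given for the families in the pooled list. Other shares over all genes were not weighted for length.

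No cuticle protein gene had a thresholded peak within 1 kb. The count was 0 of 122, beside 662 of all 13968 genes (4.74%), and beside 3.19% for all genes weighted to the same length classes. Each of the 70 Cpr, 25 Twdl, 15 Lcp and 7 Ccp84 genes was without one, and so were the 3 Edg genes, Acp65Aa and the reductase gene. The highest pooled score near any of them was 48.8, below the lowest thresholded score of 78.0. The 768 highest pooled regions also reached 662 genes and 0 of the 122, so this gap restates the count of 0 and adds nothing to it.

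The thresholded peaks closest to a cuticle protein gene lay outside that window. Cpr62Bc was the nearest, with a peak 2723 bp from its TSS at chr3L:1844617-1844996, in intergenic sequence upstream of the gene, and the TSS of Cpr62Bc was the closest protein-coding TSS to it. Its score of 78.2 ranked 762 among the 768 peaks, and its position overlapped regions ranked 686 in replicate 1 and 1288 in replicate 2. The peak 3219 bp from Cpr31A lay in an intron of Pen, an importin alpha gene, 532 bp from a Pen TSS. It overlapped regions ranked 6144 in replicate 1 and 398 in replicate 2. The peak 4008 bp from Cpr78Cc and 6785 bp from Edg78E lay in an intron of CG11309, 70 bp from its TSS, with a score of 141. Within 5 kb of a thresholded peak were 3 cuticle protein genes (2.46%), against 10.7% of all genes, and within 10 kb 6 (4.92%) against 18.3%. Distances were taken from the closest TSS of each gene, and these shares were not matched for length or number of TSSs. The median distance was 48.7 kb, close to the 46.8 kb over 13945 genes.

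Regions of the pooled list lay near 36 of the 122 genes (29.5%), against 37.9% of all genes and 32.1% at the same lengths. The Cpr family, the largest, held most of them, with 27 of 70 (38.6%). That share is near the 37.9% of all genes, and 33.3% of all genes at Cpr lengths had one. Of the Twdl genes 4 of 25 had one (16%, against 32.1% at the same lengths). Of the Lcp genes 2 of 15 did (13.3% against 27.5%), and of the Ccp84 genes 2 of 7 (28.6% against 29.6%). None lay near an Edg gene or Acp65Aa. The 1-gene and 3-gene groups are too small for a share to be read.

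The 2 replicates stood on opposite sides of the background. Replicate 1 had a region near 69 genes (56.6%), against 44.3% of all genes and 40.7% at the same lengths. Replicate 2 had one near 44 (36.1%), against 53.1% and 45.2%. In both lists were 28 genes (23%), against 28.4% of all genes and 22.6% at the same lengths. In replicate 1 alone were 41 (33.6% against 15.9%), in replicate 2 alone 16 (13.1% against 24.7%), and in neither 37 (30.3% against 31%). The order held for Cpr genes, at 64.3% in replicate 1 and 42.9% in replicate 2, for Twdl genes, at 52% and 20%, and for Ccp84 genes, at 57.1% and 14.3%. Lcp genes had the other order, at 26.7% (4 of 15) and 33.3% (5 of 15), which is also the order of all genes. The Ccp84 shares rest on 4 and 1 of 7 genes. Counts this small do not show that the families differ in their order. Of the 13 Twdl genes of replicate 1, TwdlN alone was also in replicate 2.

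**Figure D1:**
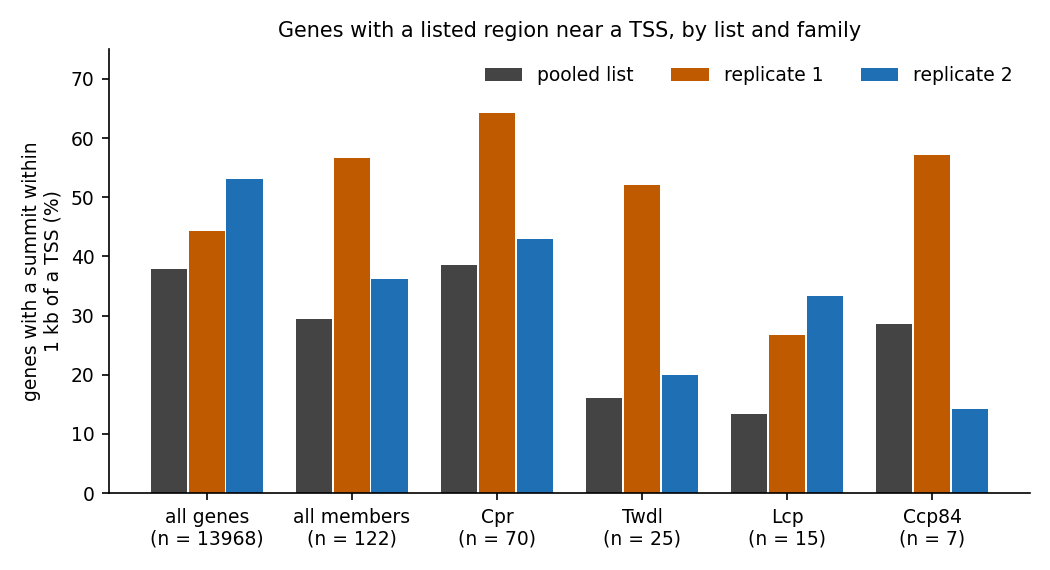
Share of genes (percent, y axis) with a summit within 1 kb of a TSS in the pooled list and each replicate list, by family and for all protein-coding genes. Replicate 1 stands above replicate 2 in the Cpr (64.3% and 42.9%), Twdl (52% and 20%) and Ccp84 (57.1% and 14.3%) families and below it over all genes (44.3% and 53.1%).

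The base composition of the lists moved with the replicate. The median GC content within 100 bp of the summit was 47.8% in the replicate 1 list, 42.8% in the replicate 2 list, 46.3% in the pooled list and 37.8% in the thresholded list. Coding exons held 26.8% of the regions of replicate 1 and 18.6% of those of replicate 2. All genes were then weighted to the same 10 classes of GC content within 1 kb of the TSS. The background became 45.4% in replicate 1 and 53.2% in replicate 2, little different from that over all genes. Median GC content in that window was already near equal, 43.9% in the cuticle protein genes and 43.5% over all genes. This weighting could therefore change little. The part of base composition or library preparation in the difference between replicates was not tested.

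How the counts built up along each ranked list differed too. Among the 2000 highest pooled regions none was near a cuticle protein gene, while 9.58% of all genes had one. Among the 5000 highest there were 6 genes (4.92% against 16.7%), and among the 10000 highest 18 (14.8% against 25.2%). In replicate 1, the 5000 highest regions reached 6 genes (4.92% against 13.7%) and the 10000 highest 23 (18.9% against 21.6%). The share passed that of all genes between there and the 15000 highest, with 40 genes (32.8% against 28%). All genes were not weighted for length at any depth, so the crossing point holds for the unmatched comparison only. In replicate 2 the share was lower than that of all genes at each depth examined, with 9 genes among the 5000 highest (7.38% against 18.4%) and 17 among the 10000 highest (13.9% against 28.3%). The median rank of the regions near these genes was 10568 among pooled regions, 14402 in the list of replicate 1 and 15177 in that of replicate 2, in each case close to the middle of the list.

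**Figure D2:**
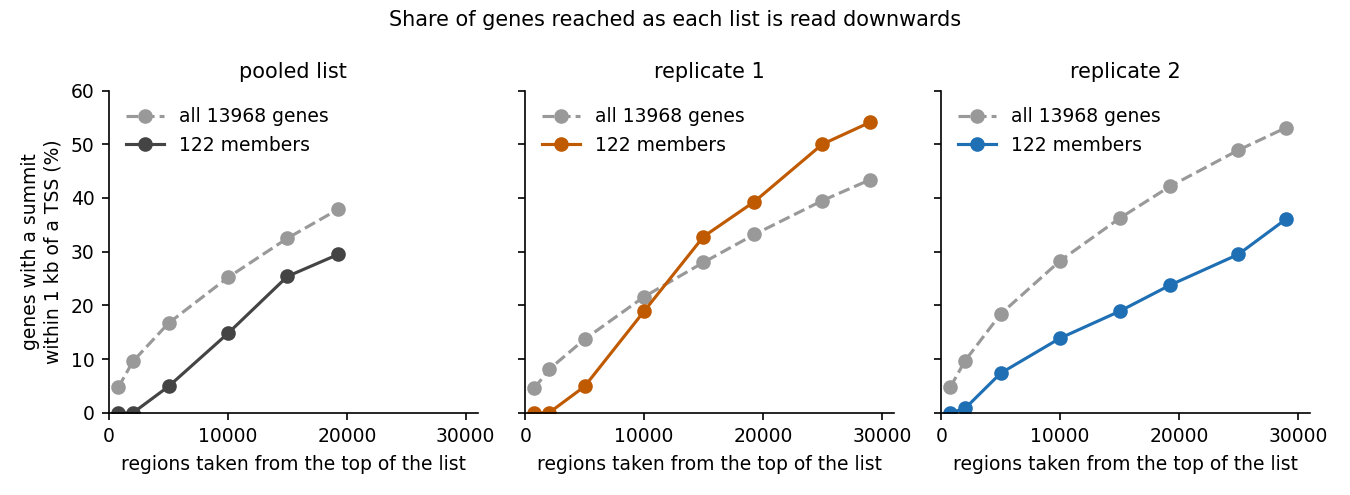
Percent of cuticle protein genes and of all protein-coding genes (y axis) with a summit within 1 kb, against the number of highest-scoring regions taken from the pooled and replicate lists (x axis). Among the 2000 highest pooled regions the cuticle protein share is 0 against 9.58%, and in replicate 1 alone the cuticle protein line crosses that of all genes, with 32.8% against 28% at 15000 regions. All genes are drawn without weighting for length.

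The reductase gene had the highest pooled score, 48.8 at rank 2656, with the summit 279 bp downstream of a TSS in the untranslated region. The −log10 q of that region was 0.332, against a median of 2.91 in the thresholded list. No other of the 122 genes had a top-scoring pooled region with a higher −log10 q. The reductase gene scored 29.3 in replicate 1 and 20.6 in replicate 2, and the regions of all 3 lists lay over its start. Among true cuticle protein genes the highest pooled score was 43.8 at rank 3993, near Cpr57A. That summit lay 240 bp upstream of Cpr57A, outside its gene body, in an annotated untranslated region of another protein-coding gene. A TSS of Obp57d, an odorant-binding protein gene, was equally far from it. The same tie held for every listed region near Cpr57A, so distance to a TSS cannot assign the summit to either gene. Cpr57A scored 15.9 in replicate 1, at rank 29816 near the end of the list. In replicate 2 it scored 27.8, at rank 2350.

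The next highest were Cpr genes with summits inside coding exons. Cpr78Cb had a pooled score of 43.1 with its summit 593 bp downstream of the TSS, and scored 28.7 at that position in replicate 1. In replicate 2 its highest region, at 20.01, lay 768 bp upstream, and a lower one, at 17.1 and rank 12823, lay 564 bp downstream. Cpr67Fb, whose promoter is printed above, had a pooled score of 43.0 at 276 bp downstream and 24.7 at 279 bp in replicate 1. In replicate 2 the highest region near Cpr67Fb scored 13.9 and lay 807 bp upstream of the TSS, and a lower one, at 13.1 and rank 26251, lay 351 bp downstream. For both genes replicate 2 had a region near the summit of replicate 1, ranked below its upstream region.

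Cpr23B had a pooled score of 42.4 at 434 bp downstream, in its coding exon. Its replicate 2 region, at 24.3, lay 377 bp downstream, while its replicate 1 region, at 31.2, lay 843 bp upstream, nearer to the TSS of CG3119. Cpr65Ea had a pooled score of 39.7 at 335 bp downstream and 32.3 at 333 bp in replicate 1, rank 2245, and no region in replicate 2. Cpr47Ef, scoring 39.3 with its summit 30 bp downstream of a TSS, was likewise listed in replicate 1 (26.1, at 1 bp) and not in replicate 2. Cpr49Ac scored 37.8 at 67 bp downstream, with 22.5 at 31 bp in replicate 1 and 12.9 at 51 bp in replicate 2. Its 3 summits fell within 36 bp of each other, at the TSS.

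The remaining Cpr genes among the 15 highest pooled scores were Cpr47Ea and Cpr67Fa2, both at 35.5, and Cpr62Ba at 35.4. Cpr47Ea was listed in replicate 1 and not in replicate 2, and Cpr67Fa2 the other way round. The lowest pooled score in the family was 28.6, at Cpr76Bc, at rank 18500 of 19279, with a summit nearer to the TSS of Cpr76Bb. Scores of the replicate lists ordered the family differently. In replicate 1 the highest were Cpr64Ab (32.6, rank 2145), Cpr65Ea, Cpr47Ed (32.2), Cpr23B and the reductase gene. In replicate 2, after TwdlT, they were Cpr100A (28.8, rank 2092), Cpr57A, Cpr47Ec (24.7) and Cpr78E (24.5). Cpr64Ab had no region in replicate 2, and Cpr100A and Cpr78E had none in replicate 1. No gene was among the 5 highest of both replicates.

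Among the Tweedle genes, TwdlT had the highest pooled score, 41.5 with its summit 101 bp upstream of the TSS. In replicate 2 it scored 33.2 at 97 bp upstream, rank 1266, the highest of any cuticle protein gene in that list. The −log10 q of that region was 1.23, while that of the pooled region was 0.154. In replicate 1 TwdlT had no region within 1 kb. The summit lies in an intron of RYa-R, a neuropeptide receptor gene. TwdlV scored 36.6 in the pooled list, 365 bp downstream in its coding exon, and 25.7 in replicate 1, with none in replicate 2. TwdlP scored 31.8, and TwdlD, the gene whose mutant gave the family its name, had the lowest pooled score of the family, 29.3 at 100 bp downstream, with 18.1 in replicate 1 and none in replicate 2.

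The larval cuticle proteins had few regions. Lcp65Ad had the highest pooled score of the family, 41.3 with its summit 42 bp downstream of the TSS, over the start of the gene whose promoter is printed above. It scored 21.1 at 20 bp downstream in replicate 1, rank 13527, and 15.2 at 17 bp in replicate 2, rank 17960. All 3 summits lay within 25 bp of each other, so the place was shared though the ranks in the replicate lists were modest. Lcp4 had the lowest pooled score, 31.2 at 315 bp upstream, with 16.9 at 644 bp downstream in replicate 1 and 12.5 at 345 bp upstream in replicate 2. Lcp2 and Lcp3 shared 1 region of replicate 2, with a score of 14.8.

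The Ccp84 genes, a set of cuticle protein genes next to Edg84A, were led by Ccp84Ae, with a pooled score of 37.6 at 515 bp downstream and 21.2 at 463 bp in replicate 1. It had no region in replicate 2. Ccp84Af had the lowest pooled score, 29.8 at 164 bp downstream, and was the one gene of this set in both replicates, at 22.5 and 12.5. Those replicate summits lay 692 and 159 bp downstream of its TSS, the first past the end of the gene and the second in its coding exon.

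The ecdysone-dependent genes and the adult cuticle gene had no pooled region. Edg78E, which encodes a pupal cuticle protein, scored 16.6 in replicate 1 at 480 bp downstream, in its coding exon, and 13.5 in replicate 2 at 783 bp downstream. Edg84A, another pupal cuticle protein gene, and Edg91, which encodes a glycine-rich protein, had no region in any list. The Edg84A promoter holds a receptor core, and whether the core goes with a listed region was not tested. Acp65Aa scored 18.6 in replicate 1 at 55 bp upstream, rank 20114, and 13.6 in replicate 2 at 320 bp upstream, rank 23745. The summit of replicate 1 lay just upstream of the TATAAA of the printed promoter, and both ranks were in the lower part of their lists.

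**Figure D3:**
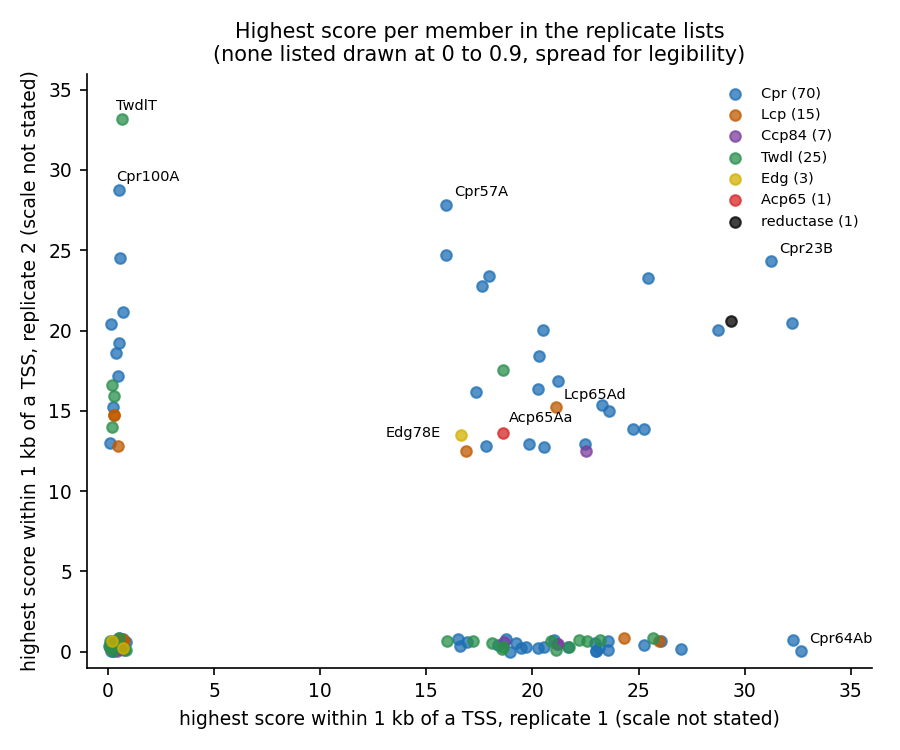
Highest authors' score within 1 kb of a TSS of each cuticle protein gene in replicate 1 (x axis) and replicate 2 (y axis), on a scale that is not stated, coloured by family, with unlisted genes drawn near 0. The 41 genes listed in replicate 1 alone lie along the x axis and the 16 listed in replicate 2 alone, TwdlT among them, lie along the y axis.

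Where both replicates listed a region near the same gene, it was often not the same region. Of the 28 genes in both lists, 12 (42.9%) had regions that overlapped, against 78.1% of the 3969 genes of the whole annotation in both lists. Summits within 100 bp of each other were found for 7 (25%), against 55.2%. Of the 36 genes with a pooled region, 18 (50%) were listed in both replicates, against 63.3% of all genes with one, 13 (36.1% against 16.7%) in replicate 1 alone and 5 (13.9% against 18.4%) in replicate 2 alone.

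Summits near these genes lay less often just upstream of the TSS, and more often downstream of it, than those near all genes, as a description with no test. All genes are longer and more often have several TSSs, and the shares below were matched for neither. Within 200 bp upstream, a stretch that takes in the printed promoters, there were 4 of 44 pairs of a gene and a pooled region (9.09%, against 24.4% over all genes). In replicate 1 there were 5 of 85 (5.88% against 18.8%) and in replicate 2 4 of 55 (7.27% against 20.8%). From the TSS to 600 bp downstream there were 18 pooled pairs (40.9% against 24.5%), 35 of replicate 1 (41.2% against 27.4%) and 19 of replicate 2 (34.5% against 26%). On the upstream side as a whole lay 50% of the pooled pairs (60.2% over all genes), 38.8% of those of replicate 1 (54.1%) and 54.5% of those of replicate 2 (58.5%). Coding exons held 16 of the 42 distinct pooled regions (38.1%), 37 of the 82 of replicate 1 (45.1%) and 14 of the 51 of replicate 2 (27.5%). Over all regions within 1 kb of a protein-coding TSS, coding exons held 26.4%, 36.3% and 21.5%.

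**Figure D4:**
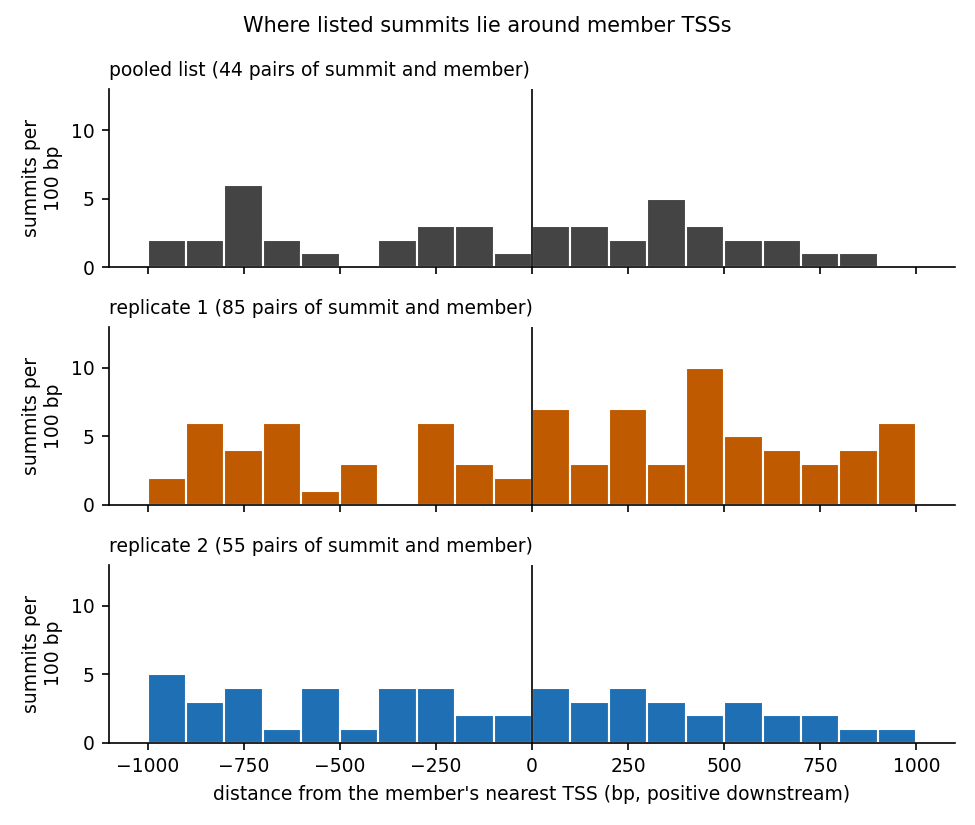
Number of summits per 100 bp (y axis) by distance from the nearest TSS of the cuticle protein gene in bp (x axis, positive downstream) in the pooled list and in each replicate list. Summits are spread over the whole window in each list, and replicate 1 has more downstream (52) than upstream (33).

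Motifs were also counted in the 300 bp around the summits. Of the 42 pooled regions near cuticle protein genes, 0 held the NBRE, against 0.98% of the 5409 pooled regions near any protein-coding TSS. At that share 42 regions would hold few. The receptor core was in 5 (11.9% against 6.93%) and TATAAA in 11 (26.2% against 28%). The GAGA repeat and the DRE were in 0, against 8.15% and 3.14%. The median GC content of these stretches was 49.3%, against 44% near any protein-coding TSS.

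Many cuticle protein genes lie in arrays. With at most 20 kb between neighbours and at least 3 genes, 15 clusters held 88 of the 122 genes over 243.2 kb. No thresholded summit lay in any of them, against 0.558 per 100 kb over the arms, a density at which a span of this size would hold few. The pooled list had 47 summits there, 19.3 per 100 kb, against 14.0 per 100 kb over the arms, replicate 1 had 79 (32.5 against 21.8) and replicate 2 had 54 (22.2 against 21.1). The arm figures include heterochromatin and the Y. Genes inside and outside clusters differed little, with a pooled region near 29.5% and 29.4%, a replicate 1 region near 59.1% and 50%, and a replicate 2 region near 35.2% and 38.2%.

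The clusters differed from each other. The largest, of 18 Lcp, Cpr and Acp65 genes at 65A on 3L, spans 31.2 kb and held 3 pooled summits, 5 of replicate 1 and 7 of replicate 2. Lcp65Ad was its one gene with a pooled region. The cluster of 4 genes from Cpr76Ba to Cpr76Bd, at 20.7 kb, held 8, 10 and 9 summits, and the 7-gene cluster from Cpr47Ea to Cpr47Eg, at 26.7 kb, held 9, 13 and 8. The highest pooled score in any cluster was 54.3 at rank 1881, in a coding exon of Cpr76Bd 3644 bp from its TSS and so outside the window used for genes. In the cluster from Cpr49Aa to Cpr49Ah the highest was 49.2, 1054 bp from the TSS of Cpr49Ac, just beyond the window. The Tweedle cluster from TwdlM to TwdlD, with 12 genes in 21.9 kb, held 2, 5 and 3 summits. The cluster of Edg84A and the 7 Ccp84 genes, at 20.5 kb, held 3, 5 and 4, and lay 260.4 kb from the nearest thresholded peak.

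**Figure D5:**
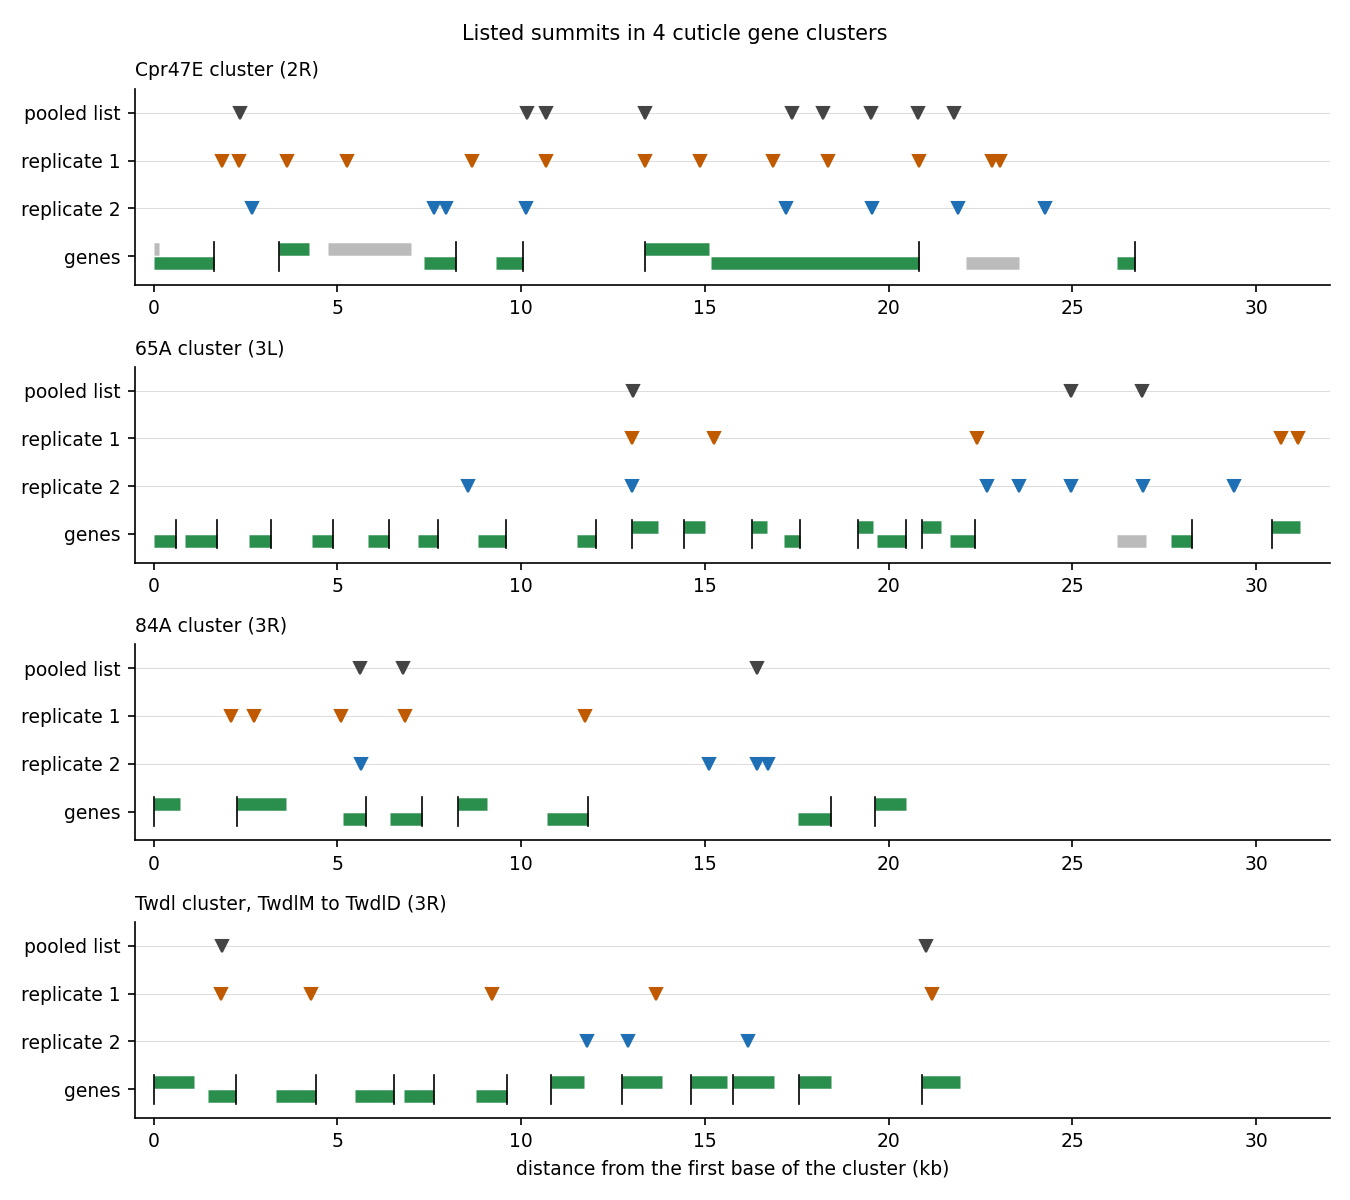
Map of 4 clusters of cuticle protein genes, with the distance from the first base of the cluster in kb on the x axis, summits of the pooled and replicate lists as triangles, cuticle protein genes in green and other genes in grey (plus strand above, minus strand below), and a line at the start of each cuticle protein gene. The cluster from Cpr47Ea to Cpr47Eg holds 9 pooled summits, while the longer cluster at 65A holds 3, of which the one at Lcp65Ad has a summit of both replicates beside it.

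Some arrays hold genes with near-identical proteins. The proteins of Lcp65Ag1 and Lcp65Ag2, of Lcp65Ab1 and Lcp65Ab2 and of Cpr65Ax1 and Cpr65Ax2 were identical, and that of Lcp65Ag3 was 99.0% identical to the first pair. None of these 7 genes had a region in any list. How reads that map to more than 1 place were treated is not given in the sources used here, and DNA identity over the windows of these genes was not measured, so the part of such reads in these absences was not tested. Cpr67Fa1 and Cpr67Fa2, at 97.8%, both had pooled regions and regions of replicate 2, and Cpr67Fa1 had one in replicate 1. TwdlB and TwdlL, at 96.9%, had 1 between them, near TwdlB in replicate 1.

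The 37 genes with no region in any list were 16 Cpr genes and 8 each of the Lcp and Twdl families, 3 Ccp84 genes and 2 Edg genes. The Ccp84 genes were Ccp84Aa, Ccp84Ab and Ccp84Ad. The Lcp genes were Lcp9, Lcp65Aa, Lcp65Af and the 5 Lcp65Ab and Lcp65Ag copies named above. The Twdl genes were TwdlE, TwdlL, TwdlM, TwdlO, TwdlQ, TwdlS, TwdlX and Twdlalpha. Over all genes 30.3% were in none of the lists, the same share as here. Ranked against genes of the same length class on the highest pooled score, with unlisted genes at 0, the cuticle protein genes had a median percentile of 35.5. That is the tied value of an unlisted gene, since most of them had no pooled region, and it says nothing of the rank of the listed ones. The highest were Cpr67Fb at 93.4 and Lcp65Ad at 92.3.

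Other genes of cuticle formation give a setting for these counts. Of 20 cuticle genes outside the families, such as chitin synthase and chitinase genes, 0 had a thresholded peak, 6 (30%) a pooled region, 8 (40%) a region of replicate 1 and 14 (70%) one of replicate 2. Of 10 genes listed for cuticle tanning, speck had a thresholded peak and 4 (40%) had a pooled region. A region of replicate 1 lay near 2 (20%) and one of replicate 2 near 5 (50%). Among those 10 was sr (stripe), a transcription factor gene and not a tanning gene, which is counted in the pooled and both replicate shares. Of 14 regulators of the ecdysone cascade, Eip75B had a thresholded peak, 12 (85.7%) a pooled region, 11 (78.6%) a region of replicate 1 and 14 (100%) one of replicate 2. Over all genes the shares were 4.74%, 37.9%, 44.3% and 53.1%, so several of the counts for the first 2 lists, on 20 and 10 genes, are close to the background. These lists were not matched to the cuticle protein genes for gene length or number of TSSs.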

How the data were processed

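The authors deposited region lists in the narrowPeak layout, thresholded by IDR, for both replicates pooled, and for each replicate. The score (column 7) and the −log10 q value (column 9) are the authors' own deposited values for each region, and the score's scale is not stated. The deposited offset gives the summit as a distance from the region start. The sources used here give no aligner, peak caller, IDR threshold or read depth. Lists on dm6 were used, with Ensembl 115 gene models and the release 6 assembly. Lists on dm3 were not used, for want of an annotation of that build. Scores ranked and described regions within a list. Nothing was tested, as there is 1 group. The labels call the samples biological replicates and do not say how many animals each holds.

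The 122 genes, the other gene lists and the motifs were chosen with earlier results of these data known. Named genes were those with a thresholded summit or else the 15 with the highest pooled scores, the 5 highest of each replicate list, the highest and lowest listed of each family, the Edg and Acp65 genes, the reductase gene and pairs with proteins at least 95% identical. Genes named besides these, where a count was small, were chosen after their values were seen. Alternatives covered the distance, assignment to the nearest TSS, the upper 50% of each list, 1 replicate left out, overlap, length matching and cluster gaps. The counting was tested on simulated data with 400 genes, where 200 planted summits were recovered for 200 genes. The tools were Python 3.11.15, numpy 2.4.6, pandas 2.3.3, Biopython 1.88 and matplotlib 3.10.9.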

Additional observations from a re-analysis of the deposited data

How the results depend on the processing

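No thresholded peak lay near a cuticle protein gene under any alternative run. Within 500 bp, 11 genes were in both replicates (9.02% against 17.5% of all genes), and within 2000 bp 59 (48.4% against 49.5%). The pooled count was 61 within 2000 bp (50% against 55.7%). With the upper 50% of each list, 18 genes had a pooled region (14.8% against 24.6%) and 7 were in both replicates (5.74% against 15.6%). Clusters then held 8.22 pooled summits per 100 kb, where the arms keep about 50% of the 14.0 of the full list. With regions overlapping by at least 50%, 9 genes were in both. The share over all genes was not counted for that overlap, so the 9 has no background beside it. For leaving out 1 replicate, the other list alone was taken to the length of the pooled or thresholded list. Replicate 2 alone then reached 29 genes (23.8% against 42.2% of all genes) and replicate 1 alone 48 (39.3% against 33.2%), on opposite sides of the background. Cluster densities were 14.0 per 100 kb with replicate 2 alone and 19.7 with replicate 1 alone. Over the arms, a list of that length has 14.0 per 100 kb, so the replicate 2 value is at the background. Thresholded counts were 0. Median percentiles were 34.9 to 37.2, a measure that ties among unlisted genes hold in place. The replicate lists alone were varied after seeing the data. Within 500 bp, 42 genes were in replicate 1 (34.4% against 28.8%) and 26 in replicate 2 (21.3% against 38.6%), within 2000 bp 79 in replicate 2 (64.8% against 71.7%), and with the upper 50% 40 (32.8% against 28%) and 22 (18% against 35.5%). Replicate 1 stayed above the background and replicate 2 below it in each of these. The counts move as the window or list shrinks or grows by construction. The other alternatives left each value within 1.5 times or within the spread between replicates. That spread was the standard deviation of 2 lists, 22.1 for the median percentile and 7.27 per 100 kb for cluster density. Around a percentile of 35.5 held by ties, a limit of 22.1 is too wide to show that the value is stable. No paired analysis was possible because the series has 1 group. Unknown read depth limits what absence from a list can show.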
